A study of Rattus norvegicus with 18 samples.

Results

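The genes described here are 8 enzymes and factors of peroxisomal and omega fatty acid oxidation: Ehhadh, Acaa1a, Crot, Crat, Pex11a, Cyp4a1, Cyp4a2 and Cyp4a3. They are the rows of the deposited table, out of 33657 genes, whose symbol is among 9 names chosen for their place in these pathways. Acaa1b, the other name, is not analysed here. All 8 genes are protein coding and passed the filter on low values, as did 11945 genes in all.

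Peroxisomes shorten very long, branched and dicarboxylic fatty acids that mitochondria handle poorly. Each round of peroxisomal beta-oxidation uses an acyl-CoA oxidase, a bifunctional hydratase and dehydrogenase (Ehhadh encodes the L-specific enzyme) and a thiolase (Acaa1a). The shortened chains leave as carnitine esters made by carnitine octanoyltransferase (Crot) and carnitine acetyltransferase (Crat), while Pex11a encodes a membrane protein that promotes peroxisome division. In omega oxidation, cytochromes P450 of the Cyp4a family hydroxylate the far end of the chain in the endoplasmic reticulum, and dehydrogenases then turn it into a dicarboxylic acid, a substrate of the peroxisome. In rodent liver these genes are classical targets of the nuclear receptor PPARalpha, which binds DNA together with RXR and is activated by fatty acids and fibrate drugs.

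The data are 18 RNA-seq libraries of whole liver from male rats, 18 weeks old, with 3 libraries in each of 6 groups. The normal control was healthy and given water, and the obese control was obese and given water. The other 4 groups were obese rats that received orlistat, a lipase inhibitor labelled as the positive control, or 1 of 3 doses of plantain, called low, medium and high. Dose amounts are not in the labels, and neither are the strain, the duration of treatment or the way the rats became obese. Nor is it said that the 3 libraries of a group are separate animals, so the p-values measure library-to-library spread alone, and part or all of it may be technical.

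Between 16598744 and 26202811 reads or fragments per library could be recovered from the values. The 8 genes had between 334 and 39558 of them per library, and the SD between the 3 libraries of a group was 0.367% to 6.42% of the mean (median 2.02%), beside 1.30% from counting alone. All 10 hepatocyte markers were present, and their summed level ran from 78365 FPKM in an orlistat library to 97345 FPKM in an obese control library. The 10 markers of Kupffer cells and macrophages summed to 182 to 184 FPKM in the normal control and 307 to 317 FPKM in the obese control, with 320 to 340 FPKM under orlistat, 389 to 401 at the low dose, 254 to 261 at the medium dose and 259 to 262 at the high dose. Reads on mitochondrial genes were 8.11% ± 0.26 of the total in the obese control, 6.45% ± 0.23 in the normal control, while high-dose libraries had 4.64% ± 0.060 (each a mean ± SD, n = 3). The 5 liver endothelial markers found, of 6, summed to 40.6 to 41.0 FPKM in the normal control and 54.0 to 56.1 FPKM in the obese control, then 79.4 to 80.5 with orlistat and 75.5 to 77.3, 77.8 to 79.0 and 90.6 to 91.2 at the low, medium and high dose. The 3 red blood cell markers, nearly all Hba-a2, summed to 196 to 209 FPKM in the normal control and 362 to 436 FPKM in the obese control, with 246 to 377 FPKM in the treated groups. The part of these differences in the results was not tested. Of 6 markers of the kidney tubule, where Cyp4a genes are also expressed, 5 stayed under 1 FPKM in every library. In whole liver, fewer cells of a type and less RNA per cell cannot be told apart.

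Cyp4a2 and Cyp4a3, the most abundant of the 8 genes by the mean FPKM over the 18 libraries, have close to the same promoter. RefSeq windows of the rat build GRCr8, from 250 bases before to 50 bases after the start site, were at hand for 7 of the 8 genes. The Cyp4a2 and Cyp4a3 windows aligned with 93.1% identity (284 identical positions in 305 aligned columns), whereas pairs of the other windows, with Acaa1a and Acaa1b not paired, ran from 46.8% to 54.2%. Both are shown because their genes followed each other closely across the groups, with Pearson's r of 0.878 over the 18 libraries. Cyp4a2 followed Crat more closely (0.957), whose window aligned with that of Cyp4a2 at 47.5% identity and held no AGGTCA. Near-identical copies can share reads, and a link between promoter and level was not tested. Capitals mark AGGTCA, the half-site to which PPARalpha and other nuclear receptors bind. This half-site starts at position -105 on the sense strand in both Cyp4a2 and Cyp4a3.
Cyp4a2, chr5:134170859-134171158, minus strand: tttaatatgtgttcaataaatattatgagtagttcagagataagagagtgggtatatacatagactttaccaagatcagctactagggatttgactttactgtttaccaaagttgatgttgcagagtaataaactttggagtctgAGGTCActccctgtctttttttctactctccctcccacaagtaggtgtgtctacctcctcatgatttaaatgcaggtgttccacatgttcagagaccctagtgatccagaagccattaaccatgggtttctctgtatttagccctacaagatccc
Cyp4a3, chr5:134352187-134352486, minus strand: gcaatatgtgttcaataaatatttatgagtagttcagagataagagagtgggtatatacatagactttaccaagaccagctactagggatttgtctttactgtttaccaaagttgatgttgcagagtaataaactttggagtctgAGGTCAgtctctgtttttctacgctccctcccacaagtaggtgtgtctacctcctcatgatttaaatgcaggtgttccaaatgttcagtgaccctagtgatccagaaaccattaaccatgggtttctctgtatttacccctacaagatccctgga
On either strand, AGGTCA occurred in 16.2% of the 33469 rat windows of this length. The full double site, 2 copies of AGGTCA with any 1 base between them, was found in 0.0538% of all windows and in none of those of the genes listed here. These are matches of letters in 300 bases, not binding sites.

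Ehhadh and Crot are shown for the opposite reason, since they moved in opposite directions in each comparison with a control. Their windows hold 60.7% and 68.0% G and C, against 39.3% and 40.0% in Cyp4a2 and Cyp4a3 and a median of 51.7% over all windows. Capitals mark CCAAT and GGGCGG, the letters bound by NF-Y and Sp1-type factors, on either strand (ATTGG and CCGCCC where the match is on the antisense strand).
Ehhadh, chr11:92746159-92746458, plus strand: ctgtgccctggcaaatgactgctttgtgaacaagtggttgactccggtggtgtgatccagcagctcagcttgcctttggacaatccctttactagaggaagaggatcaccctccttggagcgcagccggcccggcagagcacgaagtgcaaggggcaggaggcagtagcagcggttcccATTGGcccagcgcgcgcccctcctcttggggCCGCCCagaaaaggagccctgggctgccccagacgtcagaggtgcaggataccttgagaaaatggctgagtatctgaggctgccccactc
Crot, chr4:26052874-26053173, plus strand: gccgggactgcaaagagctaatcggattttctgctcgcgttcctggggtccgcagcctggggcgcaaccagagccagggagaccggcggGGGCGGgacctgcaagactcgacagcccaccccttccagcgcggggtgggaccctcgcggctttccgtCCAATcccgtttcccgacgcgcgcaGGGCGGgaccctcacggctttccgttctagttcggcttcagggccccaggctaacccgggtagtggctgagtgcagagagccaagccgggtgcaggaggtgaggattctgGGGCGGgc
CCAAT was present in 37.5% of all windows and GGGCGG in 33.1%, so that both elements are common.

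Ehhadh and Acaa1a, the enzymes of the beta-oxidation spiral, were lowest in the obese control and higher in each of the other 5 groups. Ehhadh (ENSRNOG00000001770, chromosome 11, 82945104 to 82978364; the build is not named in the table) stood at 203.9, 200.9 and 200.4 FPKM in the normal control and at 108.0, 111.5 and 112.0 FPKM in the obese control. FPKM scales the fragments of a gene by its length and by the sequenced total. The normal libraries were all far above the obese ones, and the mean fell by 45.2%. The log2 difference of FPKM + 1 was -0.86 ± 0.02 (standard error of the limma fit, adjusted p = 8.55e-15).

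All 4 treatments had higher Ehhadh than the obese control. It measured 185.2, 183.9 and 181.0 FPKM under orlistat and 191.4, 182.6 and 184.8 FPKM at the low dose. The medium dose gave 175.4, 174.2 and 175.0 FPKM and the high dose 168.0, 170.5 and 168.1 FPKM. None of these libraries reached the lowest normal library, and none came down to the highest obese library. On the path from the obese mean to the normal mean, orlistat covered 79.9% ± 2.35, the low dose 83.0% ± 5.01, the medium dose 70.5% ± 0.70 and the high dose 64.0% ± 1.58 (mean ± SD over the 3 treated libraries, with the control means taken as fixed). On the deposited scale Ehhadh was thus highest at the low dose among the plantain groups. The medium dose was below the low dose (-0.09 ± 0.02, adjusted p = 0.00321), and so was the high dose (-0.14 ± 0.02, adjusted p = 5.45e-05). Medium and high dose did not differ past the threshold of 0.05 (-0.05 ± 0.02, adjusted p = 0.0870), nor did low dose and orlistat (0.02 ± 0.02, adjusted p = 0.409). FPKM totals per library were 582062 to 594638 at the low dose and 552756 to 582556 at the medium dose. They were 532688 to 535471 at the high dose and 531108 to 549373 with orlistat. Values of these comparisons with equal FPKM totals are not reported here, so the order of the treated groups may depend on the scale.

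Acaa1a (ENSRNOG00000032908, chromosome 8, 128027958 to 128036236), the thiolase that releases acetyl-CoA, varied least of the 8 genes, by 1.21-fold between its lowest and its highest library. It measured 242.2, 239.1 and 241.1 FPKM in the normal control and 217.6, 212.1 and 217.6 FPKM in the obese control, so the obese libraries were lower without overlap (-0.16 ± 0.02, adjusted p = 1.08e-05). With orlistat it was at 235.7, 233.3 and 236.7 FPKM. Plantain took it to 248.4, 255.1 and 243.2 FPKM at the low dose, 246.2, 257.4 and 256.7 FPKM at the medium dose and 254.8, 248.4 and 250.1 FPKM at the high dose. Each treated library was above each obese one. The differences were 0.12 ± 0.02 for orlistat (adjusted p = 0.000136), 0.20 ± 0.02 for the low dose (1.74e-06), 0.23 ± 0.02 for the medium dose (3.12e-07) and 0.22 ± 0.02 for the high dose (4.08e-07). Medium and high dose were also above the normal control (0.07 ± 0.02 and 0.06 ± 0.02, adjusted p = 0.00954 and 0.0299). On the deposited scale the 3 doses did not differ past the threshold for Acaa1a (F-test, adjusted p = 0.583). The FPKM totals differed between the doses, and this F-test with equal totals is not reported here, so the likeness of the doses may depend on the scale. Reads could be shared with its close copy Acaa1b. Rescaling each library to the same FPKM total gave differences of -0.28 for the obese against the normal control, 0.29 for orlistat and 0.40 for the high dose.

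The ratio of Ehhadh to Acaa1a, which does not depend on the library scale, was 0.838 ± 0.0058 in the normal control and 0.512 ± 0.015 in the obese control. It stood at 0.780 ± 0.013 with orlistat, 0.749 ± 0.029 at the low dose, 0.690 ± 0.019 at the medium dose and 0.672 ± 0.014 with the highest dose (mean ± SD, n = 3). Between single libraries Ehhadh varied 1.89-fold and Acaa1a 1.21-fold. No group's ratios reached those of the normal control.

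**Figure D1:**
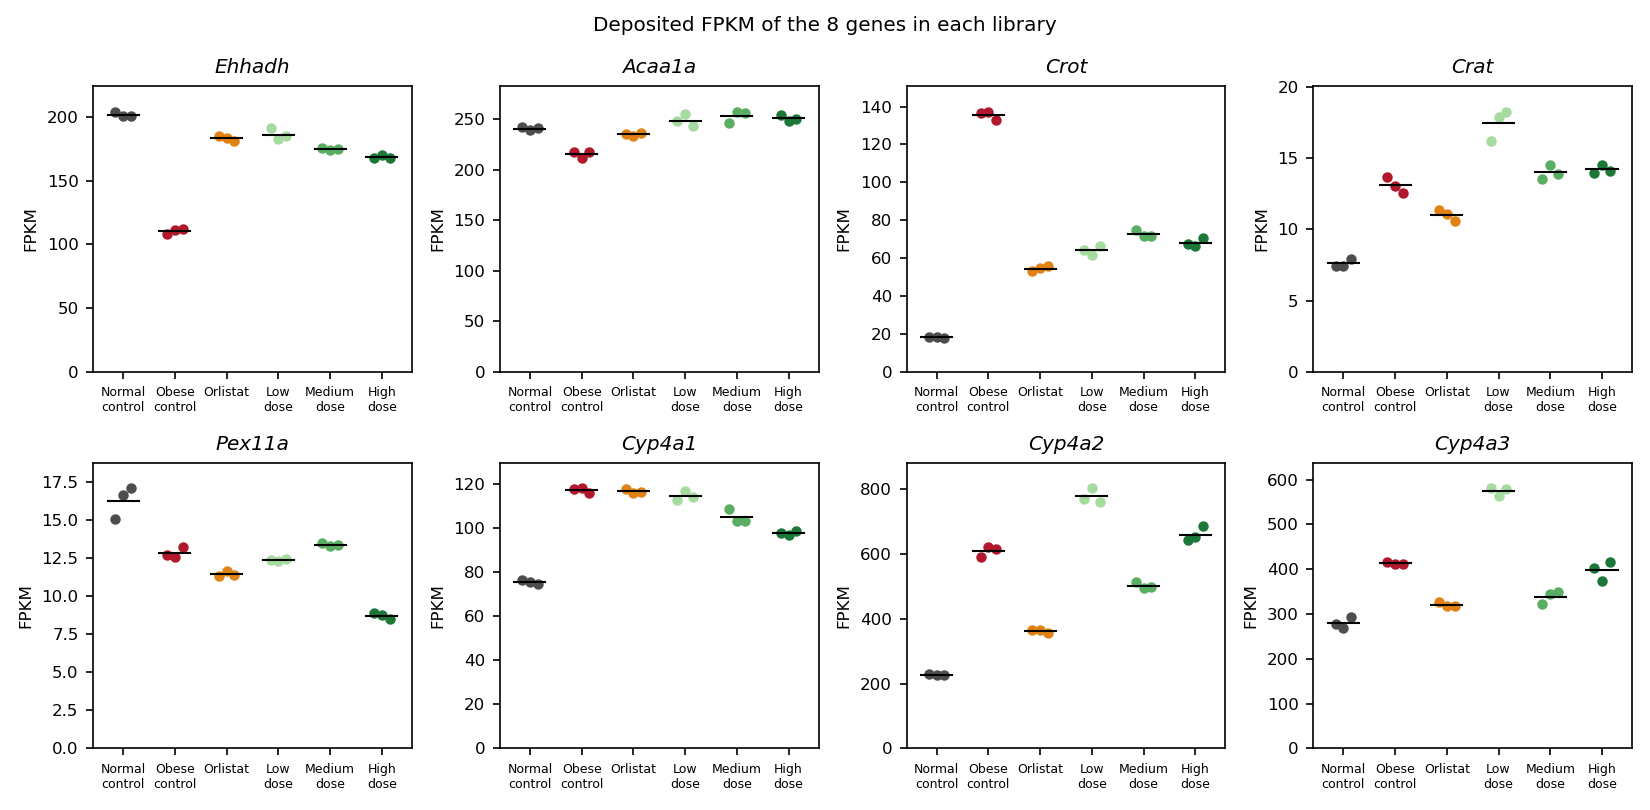
Deposited FPKM (vertical axes, linear and starting at 0) of the 8 genes in each of the 18 libraries, with points for single libraries and lines for the mean of 3. Ehhadh is lowest and Crot highest in the obese control, with the reverse in the normal control and all treated libraries between the controls. Crat, Cyp4a2 and Cyp4a3 have their highest libraries at the low dose.

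Crot, whose enzyme makes carnitine esters of medium chains so that they can leave the peroxisome, had the widest range of the 8 genes, 7.67-fold between single libraries. Crot (ENSRNOG00000006779, chromosome 4, 22081604 to 22116265) was at 18.6, 18.4 and 17.9 FPKM in the normal control and at 136.7, 137.1 and 132.9 FPKM in the obese control. The means differed by 7.40-fold. The log2 difference was 2.82 ± 0.03 (adjusted p = 7.91e-18), opposite in sign to that of Ehhadh.

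Every treated group had less Crot than the obese control and more than the normal control. Orlistat gave 53.0, 54.5 and 55.7 FPKM and the low dose 64.5, 61.8 and 66.5 FPKM. The medium dose gave 75.03, 71.7 and 71.5 FPKM and the high dose 67.6, 66.4 and 70.5 FPKM. No treated library overlapped with either control. Against the obese control Crot fell by 1.30 ± 0.03 with orlistat (adjusted p = 8.41e-14), by 1.07 ± 0.03 at the low dose (1.65e-12), by 0.89 ± 0.03 at the medium dose (7.04e-12) and by 0.98 ± 0.03 at the high dose (1.70e-12). This was 69.2% ± 1.14, 60.8% ± 1.99, 53.6% ± 1.71 and 57.5% ± 1.81 of the way to the normal mean. Low dose and orlistat differed (0.24 ± 0.03, adjusted p = 2.97e-05). High dose was separated past the threshold neither from low dose (0.08 ± 0.03, adjusted p = 0.0566) nor from medium dose (-0.09 ± 0.03, adjusted p = 0.0525). These dose comparisons may depend on the scale, since FPKM totals were lower at the high dose, and their values with equal totals are not reported here.

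Crat encodes the short-chain counterpart, which moves acetyl groups onto carnitine in peroxisomes and mitochondria, and it fell like Crot with orlistat but not at any plantain dose. Crat (ENSRNOG00000018145, chromosome 3, 8968417 to 8981362) measured 7.43, 7.44 and 7.94 FPKM in the normal control and 13.7, 13.1 and 12.6 FPKM in the obese control, a rise of 0.71 ± 0.05 (adjusted p = 2.66e-09). Orlistat libraries were lower than the obese ones, at 11.3, 11.1 and 10.6 FPKM (-0.24 ± 0.05, adjusted p = 0.000497). Low-dose libraries were the highest of all, at 16.2, 17.9 and 18.2 FPKM (0.38 ± 0.05 against the obese control, adjusted p = 9.00e-06). Medium dose, at 13.6, 14.5 and 13.9 FPKM, overlapped with the obese control (0.09 ± 0.05, adjusted p = 0.144). High dose, at 14.0, 14.5 and 14.1 FPKM, lay just above it (0.11 ± 0.05, adjusted p = 0.0616). Crat calls moved with the scale of the libraries: with equal FPKM totals, the fall under orlistat no longer passed (-0.08, adjusted p = 0.198), whereas the medium dose (0.17, adjusted p = 0.00986) and the high dose (0.27, adjusted p = 0.000218) did. Without obese control replicate 1 the high dose also passed (0.14, adjusted p = 0.0355).

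The ratio of Crot to Crat set the normal control, the obese control and the low dose apart, while orlistat, medium and high dose overlapped. It was 2.41 ± 0.14 in the normal control and 10.3 ± 0.32 in the obese control. It was 4.96 ± 0.29 with orlistat and 3.70 ± 0.27, 5.20 ± 0.31 and 4.80 ± 0.21 at the low, medium and high dose (mean ± SD, n = 3). The obese libraries, at 9.98 to 10.6, shared no value with any other group, and the low dose came nearest to the normal control, at 3.46 to 3.99 against 2.25 to 2.51.

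Pex11a, the factor of peroxisome division, was highest in the normal control and lowest at the high dose. Pex11a (ENSRNOG00000015003, chromosome 1, 141474180 to 141481315) was at 15.1, 16.6 and 17.1 FPKM in the normal control and at 12.7, 12.5 and 13.2 FPKM in the obese control, which was lower (-0.32 ± 0.04, adjusted p = 3.39e-06). At the high dose it was at 8.88, 8.78 and 8.48 FPKM, below every other library in the study (-0.51 ± 0.04 against the obese control, adjusted p = 2.30e-08). Unlike Ehhadh and Crot, it thus moved further from the normal level.

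The other treated groups lay near the obese control for Pex11a. Orlistat gave 11.3, 11.7 and 11.4 FPKM, a fall (-0.15 ± 0.04, adjusted p = 0.00341) that was gone with equal FPKM totals (0.0053, adjusted p = 0.917). Low dose, at 12.4, 12.3 and 12.5 FPKM, and medium dose, at 13.5, 13.3 and 13.4 FPKM, did not pass (-0.05 ± 0.04 and 0.06 ± 0.04, adjusted p = 0.372 and 0.256). The high dose differed from the medium dose (-0.57 ± 0.04, adjusted p = 4.31e-08), from the low dose (-0.46 ± 0.04, adjusted p = 2.37e-07) and from orlistat (-0.36 ± 0.04, adjusted p = 6.82e-06). At 334 to 1043 recovered reads per library, Pex11a had the lowest counts of the 8 genes together with Crat.

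The Cyp4a genes, the fatty acid omega-hydroxylases, were all higher in the obese control than in the normal control, and the treatments then set them apart. In the table they lie on chromosome 5: Cyp4a2 from 134196912 to 134207863 and Cyp4a3 from 134469270 to 134484839 on the minus strand, and Cyp4a1 from 134492756 to 134507154 on the plus strand. Close copies can share reads, so the split between these genes is uncertain, while their sum is less so. Summed, they stood at 584, 570 and 593 FPKM in the normal control and at 1124, 1152 and 1142 FPKM in the obese control. Orlistat lowered the sum to 811, 801 and 791 FPKM, and the low dose raised it to 1464, 1482 and 1454 FPKM. The medium dose was at 944, 941 and 949 FPKM and the high dose at 1143, 1121 and 1201 FPKM. Only the high dose overlapped with the obese control.

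With the recovered reads of the 3 genes added before the test, the obese control exceeded the normal control by 1.01 ± 0.02 (adjusted p = 3.81e-15). The sum fell by 0.53 ± 0.02 with orlistat (adjusted p = 2.08e-11), rose by 0.35 ± 0.02 at the low dose (adjusted p = 4.55e-09) and fell by 0.27 ± 0.02 at the medium dose (adjusted p = 8.09e-08). At the high dose the difference of 0.03 ± 0.02 did not pass (adjusted p = 0.308). The order of the doses was therefore not the order of their Cyp4a level: low was above high (high against low -0.33 ± 0.02, adjusted p = 2.06e-08), and high was above medium (0.30 ± 0.02, adjusted p = 1.17e-07). The sum was not tested with equal FPKM totals. These totals were 600174 to 609662 per library in the obese control and 532688 to 535471 at the high dose. The result for the sum at the high dose may therefore depend on the scale. With equal totals, Cyp4a2 and Cyp4a3 were higher at the high dose than in the obese control and Cyp4a1 was lower, as given below.

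Cyp4a2 (ENSRNOG00000030154) had the largest log2 difference of the 3 between the controls and with orlistat against the obese control. It was at 230.2, 224.9 and 225.0 FPKM in the normal control and at 590.2, 622.0 and 614.7 FPKM in the obese control, 2.69-fold apart (1.42 ± 0.03, adjusted p = 1.62e-15). Orlistat libraries, at 366.1, 366.5 and 356.6 FPKM, lay between the controls (-0.74 ± 0.03 against the obese control, adjusted p = 7.01e-12). Low-dose libraries exceeded every other library, at 771.1, 802.4 and 761.5 FPKM (0.35 ± 0.03, adjusted p = 8.37e-08). Medium dose was lower than the obese control, at 512.7, 494.0 and 497.4 FPKM (-0.28 ± 0.03, adjusted p = 8.09e-07). High dose was slightly higher, at 642.8, 651.1 and 686.6 FPKM (0.12 ± 0.03, adjusted p = 0.00241; 0.29 with equal FPKM totals). All 5 neighbouring pairs in the order normal control, orlistat, medium dose, obese control, high dose and low dose passed the test for Cyp4a2.

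Cyp4a3 (ENSRNOG00000009741) had close to the same order of groups, but the high dose and the obese control did not separate, and neither did orlistat and the medium dose (0.08 ± 0.04, adjusted p = 0.164). It measured 277.6, 269.4 and 293.8 FPKM in the normal control and 415.9, 412.4 and 412.2 FPKM in the obese control (0.56 ± 0.04, adjusted p = 5.38e-09). Orlistat, at 327.5, 318.2 and 317.7 FPKM, was lower than the obese control (-0.36 ± 0.04, adjusted p = 1.06e-06; -0.19 with equal FPKM totals). The low dose, at 580.5, 563.3 and 578.8 FPKM, was higher without overlap (0.47 ± 0.04, adjusted p = 1.29e-07). The medium dose, at 323.3, 343.8 and 348.7 FPKM, was lower (-0.29 ± 0.04, adjusted p = 1.86e-05). The high dose, at 403.1, 373.3 and 415.9 FPKM, straddled the obese libraries (-0.06 ± 0.04, adjusted p = 0.219; 0.12 and adjusted p = 0.0402 with equal FPKM totals, so that its direction depends on the scale).

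Cyp4a1 (ENSRNOG00000009597), in spite of lying next to Cyp4a3, did not respond to orlistat or the low dose in a way the test could detect. It was at 76.3, 75.5 and 74.3 FPKM in the normal control and at 117.4, 117.8 and 115.6 FPKM in the obese control (0.63 ± 0.02, adjusted p = 9.54e-13). Orlistat libraries read 117.4, 115.9 and 116.1 FPKM and low-dose libraries 112.6, 116.5 and 113.8 FPKM, both overlapping with the obese control (-0.0055 ± 0.021 and -0.03 ± 0.02, adjusted p = 0.846 and 0.266). The orlistat value turned to a rise of 0.16 with equal FPKM totals (adjusted p = 6.71e-06) and of 0.09 after quantile normalization (adjusted p = 0.00519). The medium dose, at 108.3, 103.3 and 103.2 FPKM, and the high dose, at 97.6, 96.6 and 98.6 FPKM, were below the obese control (-0.16 ± 0.02 and -0.26 ± 0.02, adjusted p = 2.41e-05 and 6.59e-08; -0.06 and -0.08 with equal FPKM totals, both still past the threshold). On the deposited scale, Cyp4a1 was the only 1 of the 8 genes with group means that fell from low to medium to high dose with every step past the threshold (medium against low -0.12 ± 0.02, adjusted p = 0.000498; high against medium -0.10 ± 0.02, adjusted p = 0.00265). With equal FPKM totals the medium and high dose lay close together against the obese control (-0.06 and -0.08), so the step between them depends on the scale.

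The make-up of the Cyp4a sum changed as well. Cyp4a3 led in the normal control, with 48.1% ± 1.24 of the summed FPKM against 38.9% ± 0.87 for Cyp4a2. Cyp4a2 led in the 5 obese groups, from 45.3% ± 0.38 with orlistat to 57.2% ± 0.93 at the high dose. The ratio of Cyp4a2 to Cyp4a3 was 0.766 to 0.835 in the normal libraries, 1.12 to 1.15 with orlistat and 1.32 to 1.74 in the other 12 libraries, without overlap between these 3 ranges. The share of Cyp4a1 ran from 7.79% ± 0.090 at the low dose to 14.5% ± 0.13 with orlistat (mean ± SD, n = 3).

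**Figure D2:**
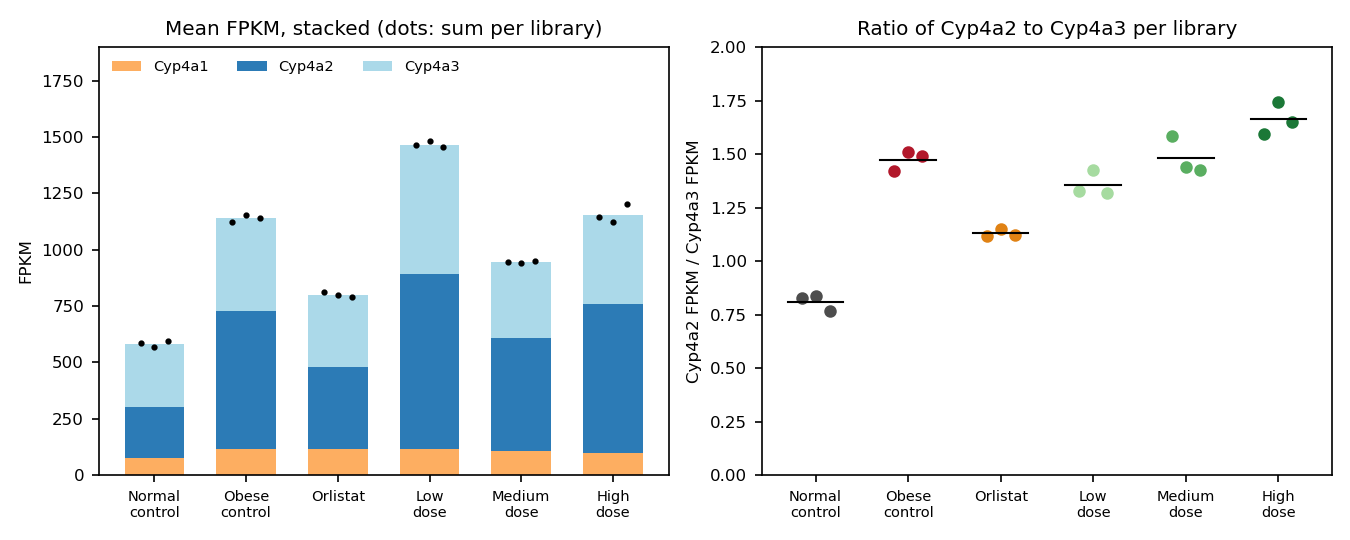
Left, mean FPKM of Cyp4a1, Cyp4a2 and Cyp4a3 stacked for each group of 3 libraries, with dots for the sum in each library; right, the ratio of Cyp4a2 to Cyp4a3 in each library (points) and its mean (lines). The sum is highest at the low dose (1454 to 1482 FPKM), and the ratio is under 1 in the normal control alone.

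Cyp4a8, another gene of the cluster, was rare beside Cyp4a2 in the obese control, with 4.19 ± 0.49 FPKM there and 3.36 ± 0.24 FPKM in the normal control. It rose in the obese control (0.25 ± 0.07, adjusted p = 0.00661). Against the obese control Cyp4a8 fell with orlistat (-0.24 ± 0.07, adjusted p = 0.00923), at the medium dose (-0.35 ± 0.07, adjusted p = 0.000851) and at the high dose (-0.20 ± 0.07, adjusted p = 0.0274). Its low-dose difference did not pass (-0.0011 ± 0.069, adjusted p = 0.993). Cyp4x1 stayed under 0.095 FPKM in every library. These neighbours are named from the table's coordinates and were chosen for their place.

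All 8 genes passed the test in the obese control against the normal control, 5 higher and 3 lower, in a comparison that called 55.1% of the 11945 genes tested (26.7% higher, 28.4% lower). The median of the 8 differences was 0.59 and that of all genes -0.00027. The F-test over the 6 groups also called all 8, where 72.1% of genes were called, and the F-test over the 3 doses called 7, where 38.4% were. Such shares mean that a call alone sets none of these genes apart, and the sizes above carry the description.

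Against the obese control, 7 of the 8 genes passed with orlistat (2 higher, 5 lower; all genes 51.8%, with 26.2% higher and 25.6% lower) and 6 at each dose. At the low dose 5 were higher and 1 lower (all genes 33.0%, with 18.3% higher and 14.8% lower). At the medium dose 2 were higher and 4 lower (all genes 41.9%, with 21.8% and 20.1%), and at the high dose 3 were higher and 3 lower (51.9%, with 26.6% and 25.3%). Ehhadh and Acaa1a were higher and Crot was lower in all 4 of these comparisons, which share the obese control libraries. Against the normal control, 7 genes passed with orlistat (background 44.1%), 7 at the low dose (47.8%), 8 at the medium dose (45.3%) and 8 at the high dose (42.4%). Among the plantain doses, 6 genes passed for medium against low (all genes 23.0%), 6 for high against low (32.7%) and 4 for high against medium (20.3%). Against orlistat, 6 passed at the low dose (all genes 36.8%) and 7 at the medium dose (26.9%). In the comparisons of orlistat and the low dose with the normal control the exception was Acaa1a (-0.03 ± 0.02 and 0.05 ± 0.02, adjusted p = 0.210 and 0.0748).

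**Figure D3:**
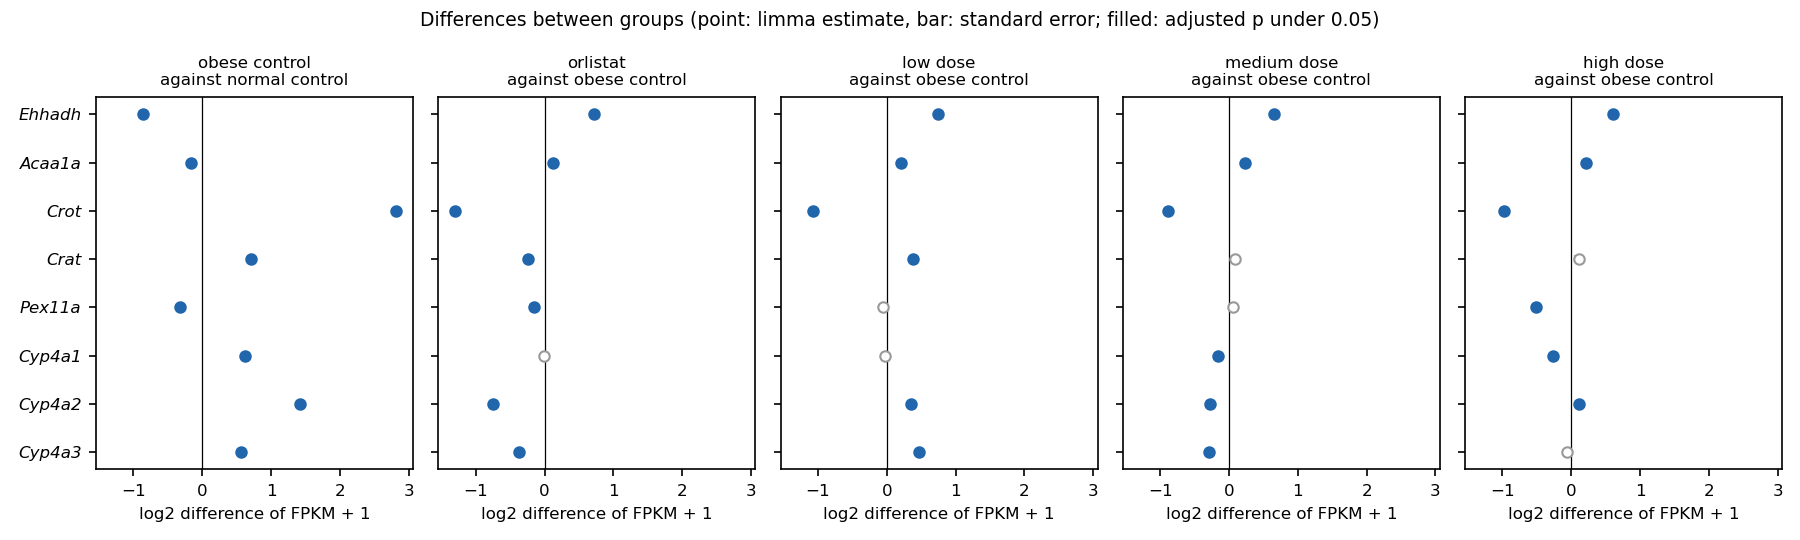
Differences in log2(FPKM + 1) between groups for the 8 genes in 5 comparisons (horizontal axis), with points for the limma estimate, bars for its standard error, which are mostly hidden by the points, and filled points for an adjusted p under 0.05. Crot stands out at 2.82 in the obese control, and Ehhadh lies to the right of 0 and Crot to the left in all 4 treatment panels.

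The high dose and orlistat, set against each other directly, differed for all 8 genes, 5 higher and 3 lower, where 15.1% of all genes were called (8.45% higher, 6.67% lower). Cyp4a2 was 0.86 ± 0.03 higher at the high dose (adjusted p = 7.85e-12), and Crat (0.34 ± 0.05, adjusted p = 7.66e-05), Crot (0.32 ± 0.03, adjusted p = 3.32e-06), Cyp4a3 (0.31 ± 0.04, adjusted p = 3.83e-05) and Acaa1a (0.09 ± 0.02, adjusted p = 0.00582) were also higher. Pex11a (-0.36 ± 0.04), Cyp4a1 (-0.25 ± 0.02, adjusted p = 4.77e-07) and Ehhadh (-0.12 ± 0.02, adjusted p = 0.000559) were lower. The Acaa1a difference did not pass after quantile normalization (0.015, adjusted p = 0.770).

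Across the 18 libraries the genes fell into different patterns. As a description, with libraries of a group sharing their treatment, Pearson's r of log2(FPKM + 1) was 0.957 between Crat and Cyp4a2, 0.878 between Cyp4a2 and Cyp4a3 and 0.853 between Crat and Cyp4a3. Cyp4a1 followed Crot (0.838) more than it followed Cyp4a2 (0.686) or Cyp4a3 (0.575). Ehhadh followed Acaa1a (0.742) and ran against Crot (-0.791). Pex11a ran against Cyp4a2 (-0.603), Crat (-0.536), Crot (-0.470), Cyp4a1 (-0.409), Cyp4a3 (-0.354) and Acaa1a (-0.202), and had its only positive r with Ehhadh (0.135).

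**Figure D4:**
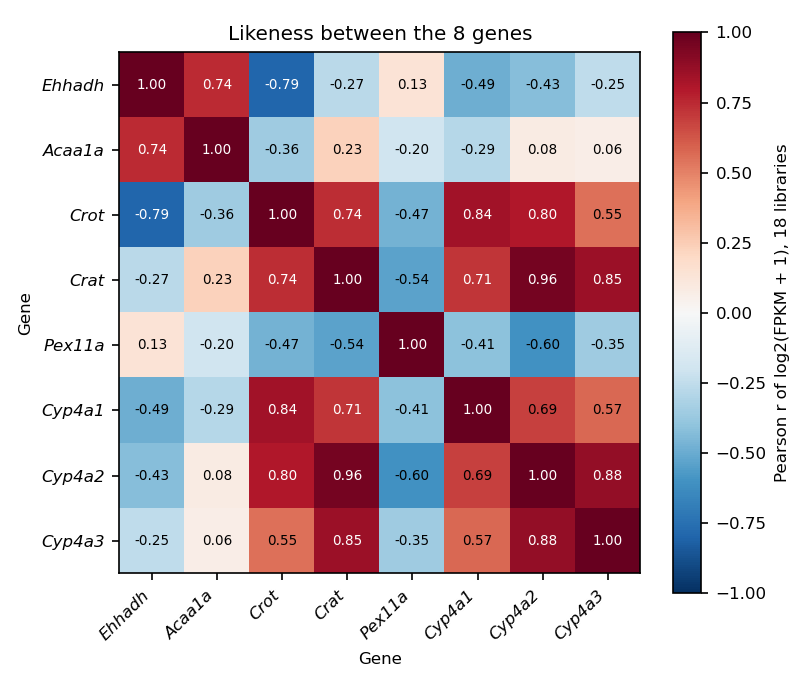
Pearson's r of log2(FPKM + 1) over the 18 libraries between each pair of the 8 genes, as colour and number. Crat, Cyp4a2 and Cyp4a3 form the block of highest values (0.853 to 0.957), and Ehhadh against Crot is the lowest (-0.791).

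The genes with the most similar profile were sought by the same r among 9848 tested genes. An r over 0.9 was reached by 88 genes for Crot, 53 for Cyp4a1, 43 for Ehhadh, 42 for Crat and 33 for Cyp4a2. The count was 8 for Cyp4a3, 5 for Acaa1a and 1 for Pex11a. The nearest to Ehhadh were the sulfotransferase gene Sult1a1 (r = 0.979), the flavin monooxygenase gene Fmo5 (0.974) and Creg1 (0.964). Nearest to Acaa1a was Pex14, which encodes a docking protein of peroxisomal import (0.920), before Ugt2b17 (0.914) and Usp18 (0.910). Nearest to Crot were Dhrs4, Inhbc and Slc22a7 (0.980, 0.978 and 0.977), of which Dhrs4 encodes a peroxisomal carbonyl reductase. Cdo1, the cysteine dioxygenase gene, came first for both Crat (0.966) and Cyp4a2 (0.968), and Polg, the mitochondrial DNA polymerase gene, was among the 3 nearest of both (0.959 and 0.954), with Crat itself second for Cyp4a2. The third of Crat was Hexa (0.958). For Cyp4a3 the nearest were Slc6a13 (0.962), Tmem176a (0.947) and Ctsz (0.931), for Cyp4a1 Pttg1ip (0.979), Serping1 (0.968) and Coq8a (0.965), and for Pex11a the sterol reductase gene Dhcr7 (0.934), Rfx1 (0.891) and Morc3 (0.889).

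The other genes of peroxisomal fatty acid oxidation and transport did not share a direction. In the obese control 9 of 25 tested genes rose and 9 fell (median -0.0090), with the lyase gene Hacl1 of branched-chain alpha-oxidation down from 124.8 ± 2.1 to 41.7 ± 0.67 FPKM (-1.56 ± 0.03), catalase (Cat) at -0.49 ± 0.02 and the acyl-CoA synthetase gene Slc27a2 at 0.42 ± 0.01. With orlistat 8 rose and 9 fell, and the acyl-CoA thioesterase gene Acot5 was down from 18.1 ± 0.69 to 4.47 ± 0.15 FPKM (-1.80 ± 0.05), Hao2 at -0.62 ± 0.03 and Acot4 at -0.52 ± 0.04. At the low dose 10 rose and 6 fell, led by Hao2 (-1.17 ± 0.03), Acot5 (-0.62 ± 0.05) and Hacl1 (0.45 ± 0.03). At the medium dose 9 rose and 8 fell, and at the high dose 10 rose and 8 fell. In both, Acot5 (-1.32 ± 0.05 and -1.14 ± 0.05), Hao2 (-0.84 ± 0.03 and -0.71 ± 0.03) and the racemase gene Amacr (0.33 ± 0.02 in each) had the smallest p-values. Acot5, a thioesterase that hydrolyses acyl-CoA in the peroxisome, and Hao2, a hydroxyacid oxidase, thus fell in each of the 4 treated groups. Between the controls they differed: Acot5 was higher in the obese control, at 18.1 ± 0.69 against 6.13 ± 0.50 FPKM (1.43 ± 0.05, adjusted p = 2.17e-12). Hao2 did not pass there (0.01 ± 0.03, adjusted p = 0.723).

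Hsd17b4, which encodes the D-specific bifunctional enzyme that works in parallel with Ehhadh, is named outside the rule for its role. It did not differ between the controls, with 172 ± 2.8 FPKM in the obese and 173 ± 2.3 FPKM in the normal control (-0.0090 ± 0.024, adjusted p = 0.770). It rose with orlistat (0.18 ± 0.02, adjusted p = 9.88e-06), at the low dose (0.23 ± 0.02, adjusted p = 1.99e-06), at the medium dose (0.17 ± 0.02, adjusted p = 2.29e-05) and at the high dose (0.28 ± 0.02, adjusted p = 1.15e-07).

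In omega oxidation outside the 8 genes, the steps around the hydroxylases fell in the obese control, where the 3 Cyp4a genes rose. Of 11 tested genes 3 rose and 6 fell in the obese control (median -0.09). Por, the reductase that feeds electrons to cytochromes P450, was at 108 ± 1.3 FPKM against 323 ± 2.1 in the normal control (-1.57 ± 0.03, adjusted p = 5.30e-16). Adh5 (-1.22 ± 0.02) and Aldh3a2 (-0.53 ± 0.02), an alcohol and a fatty aldehyde dehydrogenase, fell too. With orlistat 7 rose and 4 fell (median 0.35), with Adh5 at 0.70 ± 0.02, Por at 0.64 ± 0.03 and Aldh3a2 at 0.59 ± 0.02. At the low dose 7 rose and 3 fell, with the same 3 genes at 0.56 ± 0.02, 0.56 ± 0.03 and 0.23 ± 0.02. At the medium dose 5 rose and 5 fell, among them Por (0.76 ± 0.03), Aldh3a2 (0.43 ± 0.02) and Adh7 (0.67 ± 0.05). Adh5 fell at the medium dose (-0.13 ± 0.02, adjusted p = 0.000507), while it rose at the high dose (0.25 ± 0.02, adjusted p = 6.19e-07). At the high dose 7 rose and 4 fell, among them Por (0.90 ± 0.03), Aldh3a2 (0.50 ± 0.02) and the hydroxylase Cyp4f1 (-0.22 ± 0.02). Adh7 rose and Cyp4f1 fell in all 4 treated groups. The medians over all genes tested lay between -0.0078 and 0.010 in these 4 comparisons.

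Among peroxisome assembly and membrane genes 3 of 19 rose and 7 fell in the obese control (median -0.08), with the membrane protein gene Pxmp4 (-0.75 ± 0.03) down and Tmem135 up (0.40 ± 0.04). Against the obese control, 6 rose and 3 fell with orlistat, 3 rose and 2 fell at the low dose, 4 rose and 4 fell at the medium dose and 5 rose and 5 fell at the high dose. Tmem135 fell in all 4 (-0.39 ± 0.04, -0.39 ± 0.04, -0.45 ± 0.04 and -0.54 ± 0.04). Fis1 fell with orlistat (-0.34 ± 0.05), at the medium dose (-0.18 ± 0.05) and at the high dose (-0.37 ± 0.05). Pex14 (0.30 ± 0.06, 0.41 ± 0.06, 0.54 ± 0.06 and 0.37 ± 0.06) and Pex16 (0.30 ± 0.05, 0.28 ± 0.05, 0.36 ± 0.05 and 0.25 ± 0.05) rose in all 4, in the order orlistat, low, medium and high dose. With orlistat, the medium dose and the high dose, the fission gene Dnm1l rose (0.29 ± 0.05, 0.15 ± 0.05 and 0.43 ± 0.05, in this order). Pxmp2 fell in these groups (-0.19 ± 0.03, -0.12 ± 0.03 and -0.25 ± 0.03). At the low dose neither Dnm1l (0.04 ± 0.05, adjusted p = 0.564) nor Pxmp2 (-0.08 ± 0.03, adjusted p = 0.0903) passed.

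Among other peroxisomal enzymes 4 of 13 rose and 6 fell in the obese control, 4 rose and 2 fell with orlistat, 6 rose and 3 fell at the low dose, 4 rose and 4 fell at the medium dose and 6 rose and 5 fell at the high dose. The acyl-CoA synthetase gene Acsl1, whose product also sits on mitochondria and the endoplasmic reticulum, fell in the obese control (-0.27 ± 0.01) and rose in the 4 treated groups (0.30 ± 0.01, 0.24 ± 0.01, 0.29 ± 0.01 and 0.25 ± 0.01 for orlistat and the low, medium and high dose). Agxt, an aminotransferase that detoxifies glyoxylate, rose in the obese control from 29.7 ± 0.86 to 74.0 ± 1.8 FPKM (1.29 ± 0.03) and fell with orlistat (-0.42 ± 0.03), at the low dose (-0.21 ± 0.03), at the medium dose (-0.47 ± 0.03) and at the high dose (-0.68 ± 0.03). Urate oxidase (Uox) rose in the obese control (0.32 ± 0.02) and again in the 4 treated groups, most at the low and medium dose (0.27 ± 0.02 and 0.29 ± 0.02). The remaining leading genes were Prdx5, which fell in all 4 treated groups (-0.16 ± 0.02 with orlistat), Pipox, which rose in all but the medium dose (0.34 ± 0.03 at the low dose), and Gstk1, which rose at the low dose (0.19 ± 0.04) and fell at the high dose (-0.42 ± 0.04).

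PPARalpha and its targets outside the peroxisome also split in direction. In the obese control 14 of 22 rose and 8 fell (median 0.16). Cpt1a, the entry step of mitochondrial oxidation (-0.75 ± 0.02), and Rxra, the partner receptor (-0.70 ± 0.03), fell like Ehhadh, and Vnn1, a pantetheinase, rose from 4.83 ± 0.11 to 10.99 ± 0.68 FPKM (1.04 ± 0.04). The receptor gene Ppara itself, named outside the rule for its role, fell from 30.0 ± 1.0 to 16.0 ± 0.68 FPKM (-0.86 ± 0.07, adjusted p = 3.06e-08). Of the 8 genes, Ehhadh, Acaa1a and Pex11a were likewise lower in the obese control, and Crot, Crat and the 3 Cyp4a genes were higher.

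In the treated groups Ppara and Rxra were higher than in the obese control. Ppara was at 23.2 ± 2.0 FPKM with orlistat (0.51 ± 0.07, adjusted p = 1.52e-05), 20.2 ± 0.61 at the low dose (0.32 ± 0.07, adjusted p = 0.00206), 20.4 ± 1.8 at the medium dose (0.33 ± 0.07, adjusted p = 0.00110) and 26.1 ± 1.9 at the high dose (0.67 ± 0.07, adjusted p = 7.82e-07). Rxra rose by 0.61 ± 0.03, 0.40 ± 0.03, 0.51 ± 0.03 and 0.77 ± 0.03 in the same order, and Cpt1a by 0.70 ± 0.02, 0.60 ± 0.02, 0.57 ± 0.02 and 0.75 ± 0.02. Of the 22 genes 5 rose and 11 fell with orlistat, 10 rose and 5 fell at the low dose, 7 rose and 9 fell at the medium dose and 9 rose and 8 fell at the high dose. The lipid droplet gene Plin2 fell with orlistat (-0.94 ± 0.04), at the low dose (-0.38 ± 0.04), at the medium dose (-1.05 ± 0.04) and at the high dose (-1.19 ± 0.04). Pdk4 rose at the low and medium dose (0.42 ± 0.03 and 0.11 ± 0.03) and fell with orlistat (-0.21 ± 0.03), and Angptl4 fell in all 4 treated groups (-0.67 ± 0.04, -0.32 ± 0.04, -0.59 ± 0.04 and -0.81 ± 0.04).

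**Figure D5:**
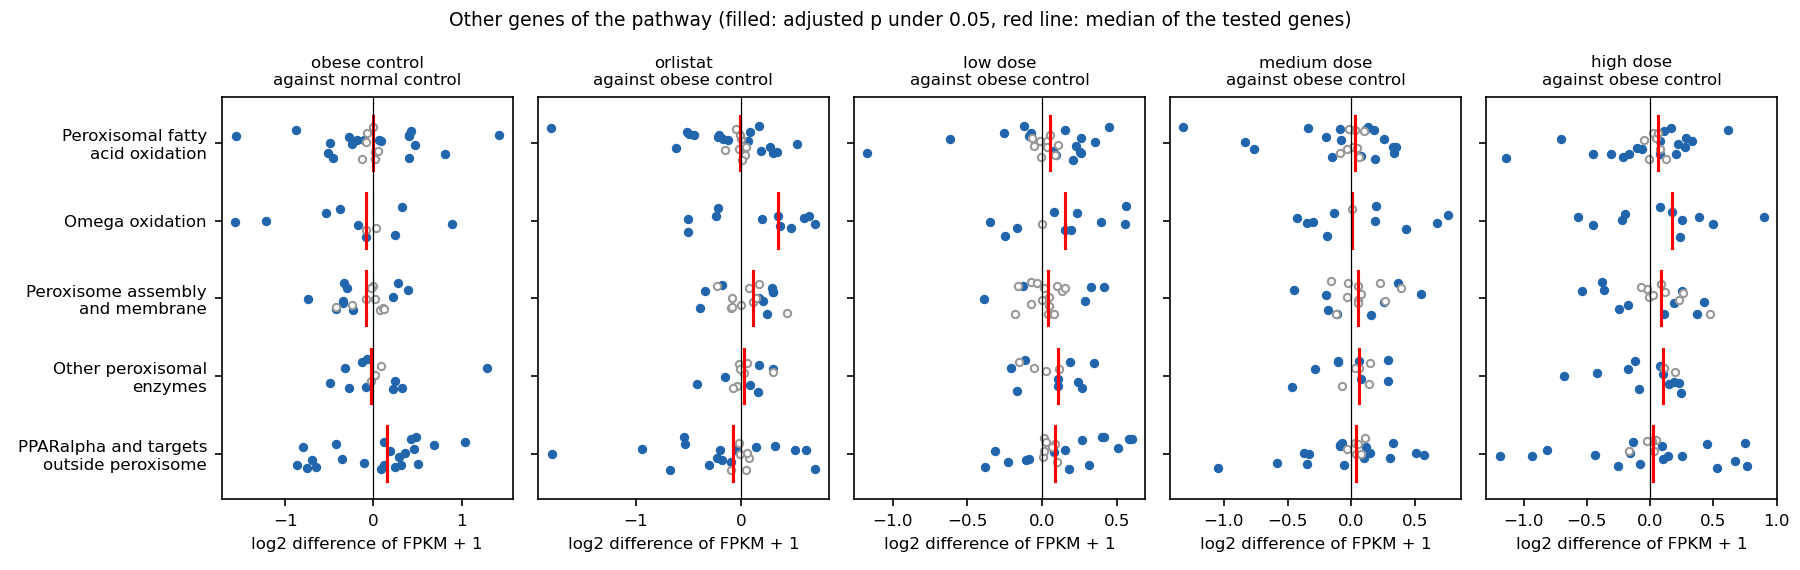
Differences in log2(FPKM + 1) of the tested genes of 5 related gene lists in 5 comparisons (horizontal axes differ between panels), with filled points for an adjusted p under 0.05 and red lines for the list median. Every list holds genes on both sides of 0 in each panel, and omega oxidation with orlistat has the median farthest from 0 (0.35).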

How the data were processed

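The authors deposited 1 table of FPKM, with 1 value per gene and library, and per the file headers a gene length, coordinates, a type and a symbol. Per the submitters' processing notes CASAVA 1.7 and Bowtie 0.12.2 were used and the build mm8 is listed, which is a mouse build; the sources used here give no rat build and no annotation release. The deposited FPKM times gene length were whole multiples of 1 step in each library (100% of genes, tolerance 0.001), which gave 16598744 to 26202811 recovered reads or fragments.

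The scale was log2(FPKM + 1), and 11945 genes reaching 1 FPKM in 3 or more libraries were tested. A single limma model (version 3.58.1, R 4.3.3) over the 18 libraries, with a mean-variance trend, gave every comparison, two-sided, with Benjamini-Hochberg adjustment over all genes tested and a threshold of 0.05; FPKM + 1 understates changes of low genes. A test on simulated data preceded the fit. With 3 against 3 libraries an exact permutation test cannot go below 0.1. The genes and gene lists were chosen with earlier results of these data known. Named genes of a list are the 3 with the smallest p per comparison, of which some are not reported here; likeness was ranked by Pearson's r. Alternatives were a pseudocount of 0.1, no filter, TPM (FPKM divided by its sum), quantile normalization, 2-group fits, a replicate block, voom on the recovered reads (chosen after seeing the data), summed Cyp4a reads and leaving out each library. Promoter windows are from RefSeq (GRCr8), by symbol; Cyp4a1 had none. Same-numbered libraries were not paired by the labels. The 5 gene lists and 9 marker lists are peroxisomal fatty acid oxidation and transport, omega oxidation, peroxisome assembly, other peroxisomal enzymes and PPARalpha targets, and markers of hepatocytes, kidney tubule, fat cells, Kupffer cells, endothelium, stellate cells, bile duct, exocrine pancreas and red blood cells.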

Additional observations from a re-analysis of the deposited data

How the results depend on the processing

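Of 8 counts of called genes (6 comparisons and 2 F-tests), all stayed within 1.5 times under every alternative run. Results changed direction with a call on either side 7 times. With TPM, Pex11a (0.0053) and Cyp4a1 (0.16) turned for orlistat against the obese control, and Cyp4a3 (0.12) for the high dose; quantile normalization turned Cyp4a1 (0.0878) for orlistat. Summing the Cyp4a reads replaced Cyp4a1 by a value of opposite sign at the low dose (0.35), at the high dose (0.0274) and for the high dose against orlistat (0.55), because Cyp4a2 and Cyp4a3 outweigh it. Under TPM the all-gene median shifted to -0.10 (obese control), 0.13 (orlistat) and 0.14 (high dose). The split of all calls then went from 3133 higher and 3055 lower to 4985 and 1567 with orlistat, from 3181 and 3018 to 5163 and 1480 at the high dose, from 3191 and 3387 to 1964 and 4570 in the obese control, from 2599 and 2404 to 3728 and 1442 at the medium dose and from 2183 and 1764 to 2643 and 1306 at the low dose. Leaving out single libraries gave 6 to 7 called genes at the high dose against the obese control and no change in the other counts.

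With the replicate number as a block the called genes were 8, 7, 6, 6 and 6 in the obese against the normal control and in orlistat and the low, medium and high dose against the obese control, as many as without it. Same-numbered libraries of different groups did not deviate together (r from -0.0925 to 0.0663 over 45 pairs), and 2 of 18 libraries went best with their own number, so the numbers pair nothing. The edgeR and DESeq2 fits were not run, since the table holds FPKM; voom on the recovered reads took their place and changed no call of the 8 genes. The planned sum of Acaa1a and Acaa1b was not run either. Depth limits little here, with at least 334 reads per gene and library.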

Other observations

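Faahl, a gene that the table places between Cyp4a2 and Cyp4a3 on chromosome 5 and that was picked out after its values were seen, varied within groups in a way the 8 genes did not. It was at 0.46, 33.5 and 0.57 FPKM in the 3 high-dose libraries, 14.1, 8.44 and 0.20 in the obese control, 0.57, 9.68 and 0.49 with orlistat and 0.51, 9.90 and 9.89 in the normal control. At the low dose it was even, at 11.02, 11.7 and 12.3 FPKM, and at the medium dose it was at 1.33, 0.94 and 0.62. In the high dose, the obese control, orlistat and the normal control, libraries of a group therefore differed in this gene far beyond counting error. The SD of the 8 genes within a group stayed at or under 6.42% of the mean. Beside the SD from counting alone, it was 1.26 times as large in the median. It was over 2 times as large in 13 of 48 combinations of gene and group, and 6.15 times for Cyp4a3 at the high dose. No reason for the difference was tested.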
